A study of Saccharomyces cerevisiae with 36 samples.

Results

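Xrn1-sensitive unstable transcripts (XUTs) are long noncoding RNAs of budding yeast that were catalogued by their accumulation in cells without the cytoplasmic 5′ to 3′ exoribonuclease Xrn1. Described here are the XUTs with no gene row opposite. They are the rows typed XUT in the deposited density table whose start-to-end interval shares no nucleotide with a row typed gene on the other strand of the same chromosome. The rule uses coordinates alone and finds 674 of the 1798 XUTs (37.5%), leaving 1124 that share at least 1 nt with a gene on the other strand. Because XUTs as a class were defined by Xrn1 sensitivity, a rise in xrn1 mutants is no independent property of these RNAs.

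The study measured strand-specific RNA-seq densities in 32 libraries of Saccharomyces cerevisiae and listed capped 5′ ends (CAGE) for a further pair of strains. In the S288C background, YAM1 is the wild type, YAM6 carries an XRN1 deletion (xrn1Δ), YAM2283 the dcp2-7 allele of the decapping enzyme and YAM202 a UPF1 deletion (upf1Δ). YAM1 served as 3 separate wild-type groups, named WT_S288C (against xrn1Δ), WT_37C (against dcp2-7) and WT_UPF1 (against upf1Δ), so the 3 mutants share no control library. The dcp2-7 cells and their wild type are labelled as 37 °C samples. Xrn1 loss was also sampled in W303 (YAM92 and YAM97), in haploid SK1 (YAM1977 and YAM2087) and in diploid SK1 (YAM2067 and the xrn1Δ/xrn1Δ strain YAM2068), in each case as wild type and mutant. Each genotype is 1 strain, each group has 2 libraries described as biological replicates, and the labels give no further allele or treatment for any group. Libraries of WT_S288C, xrn1_S288C, WT_37C and dcp2_37C were also made from RNA digested with Terminator, an exonuclease that degrades RNA with a 5′ monophosphate and spares capped RNA.

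Cytoplasmic decay of a yeast mRNA usually begins with shortening of its poly(A) tail, after which Dcp2 removes the cap and Xrn1 degrades the uncapped body. Nonsense-mediated decay (NMD), which needs the helicase Upf1, directs decapping to RNAs whose translation ends early, such as those with a short reading frame followed by a long untranslated stretch. A long noncoding RNA that is exported and meets ribosomes offers such short frames. The title of the study names double-stranded RNA as a block to NMD. By the rule, the XUTs described here have no gene row opposite. Some are antisense to transposable elements or to genes without a row, as described below. An annotated mRNA may therefore still provide a complement to some of them.

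The following 5 RNAs are printed as examples of members with large rises (in upf1Δ: XUT0788, XUT0988, XUT0390 and XUT0468; in dcp2-7: XUT1262). Each is given 5′ to 3′ on the transcript strand from its annotated start to the stop codon of the first ATG, from the RefSeq copy of assembly R64, with the reading frame from ATG to stop in capitals. XUT0988 spans chr2:643563-645008 (minus strand) and the stretch shown is chr2:644902-645008. XUT0390 spans chr7:875321-876235 (plus) and the stretch is chr7:875321-875445. XUT0468 spans chr9:28872-30357 (plus) and the stretch is chr9:28872-28925. XUT0788 spans chr15:3524-3979 (plus) and the stretch is chr15:3524-3612. XUT1262 spans chr7:810585-811379 (minus) and the stretch is chr7:811334-811379.
XUT0988: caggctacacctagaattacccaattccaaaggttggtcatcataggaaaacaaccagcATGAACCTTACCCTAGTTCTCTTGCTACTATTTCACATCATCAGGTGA
XUT0390: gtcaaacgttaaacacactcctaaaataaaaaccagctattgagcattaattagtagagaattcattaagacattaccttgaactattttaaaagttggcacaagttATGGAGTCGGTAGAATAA
XUT0468: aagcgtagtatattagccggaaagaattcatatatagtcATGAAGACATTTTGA
XUT0788: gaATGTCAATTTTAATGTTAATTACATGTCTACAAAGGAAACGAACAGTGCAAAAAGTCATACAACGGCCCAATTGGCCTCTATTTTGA
XUT1262: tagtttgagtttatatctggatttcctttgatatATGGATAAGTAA
The first frames of these RNAs have 15, 5, 4, 28 and 3 codons before the stop, in the order printed. In each, more than 300 nt of annotated RNA follow the stop codon.

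Short first frames were common among the members. Of the 575 members on nuclear chromosomes and outside transposable elements, 99.5% hold an ATG, the first one at a median of 37 nt from the annotated 5′ end. The median first frame was 12 codons (quartiles 5 and 22.25, longest 130), and 95.8% of the 568 frames that close within the RNA were under 50 codons. XUTs opposite a gene had a median first frame of 13.5 codons. GC content was 36.5% at the median in these members and 39.2% in XUTs opposite a gene. The Nrd1-binding tetramers GTAA or GTAG occurred on the transcript strand of the first 300 nt in 91.9% of the 418 members that are at least that long, and the Nab3-binding tetramer TCTT in 81.3%. The shares were 90.2% and 88.9% in the 955 XUTs opposite a gene, and 96.9% and 95% in the 159 cryptic unstable transcripts (CUTs) with no gene opposite. These tetramers are short, occur in most windows of this length and say nothing of binding.

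The members are shorter than the other XUTs, with a median length of 449.5 nt (139 to 5579) against 709.5 nt (200 to 5923). None overlaps a gene on its own strand. A gene on the other strand starts within 500 nt upstream of the 5′ end of 274 members (divergent, median distance 259 nt), a gene on the same strand ends within 500 nt upstream of 45 (tandem, median 295 nt), and 355 have neither. Another noncoding row lies on the other strand of 259 members and no row of any type on the other strand of 415. Since 248 members share nucleotides with another noncoding row on the same strand, their densities partly count the same reads. At the edge of the rule, XUT0456, XUT0766 and XUT1531 lie 3 nt from the nearest gene on the other strand, while XUT0574, XUT1198 and XUT0031 share 2, 6 and 7 nt with one and are outside. Gene rows are coding intervals, so a member may lie opposite an untranslated region. A gap of more than 200 nt from any gene on the other strand holds for 502 members.

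The gene rows of the density table do not include all annotated genes. Of 6002 nuclear protein-coding genes in R64, 235 have no gene row and 91 of those encode the Gag product of Ty retrotransposons. Ty elements are retrovirus-like transposons flanked by long terminal repeats, transcribed into a near full-length RNA that is both translated and packaged. Of the members, 55 are sense transcripts of Ty elements (32 on Ty1, 15 on Ty2, 1 on Ty3, 5 on Ty4 and 2 on no numbered full-length element). They lie on the strand of the element, so its missing gene rows have no bearing on the rule for them. Another 43 are antisense to an element (32 Ty1, 8 Ty2, 2 Ty3 and 1 unnumbered), where a missing gene row on the other strand can matter. A sense and an antisense member share the same element at 36 of the 50 full-length elements. A further 40 members have another R64 gene opposite that has no gene row, of which 12 are opposite RNA genes only, 535 have none, and 1 lies on the 2-micron plasmid. The division by Ty was made after the values were seen, and the counts below are given for all 674 members and for the 576 off Ty.

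Ty members cannot be assigned reads one by one. Counts of Ty members below are counts of annotated copies that may share the same reads, not of separate RNAs. Of all 50-nt windows in the R64 sequence of a Ty sense member, a median of 2.26% occur once in the genome, and the median for Ty antisense members was 0%, against 100% for members off Ty and for XUTs opposite a gene. The sources used here do not say how reads with several matches were placed. The first 60 nt of the 32 Ty1 antisense members form 25 distinct sequences, so most annotated starts differ. The most common is shared by XUT0011, XUT0298 and XUT0357 and is shown for XUT0011 on YARCTy1-1 (chr1:165379-165438, plus strand).
XUT0011: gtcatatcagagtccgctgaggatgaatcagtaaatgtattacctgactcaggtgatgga

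Sequencing depth was 11021562 to 68466587 reads per rRNA-depleted library and 13208233 to 23350952 per Terminator library. Densities are reads per nucleotide scaled so that snoRNA reads have the same sum in all libraries, a scale on which most mRNAs also rose in the mutants. The targeted genes follow the labels: XRN1 changed by -7.43, -7.32, -6.73 and -5.51 on the log2 scale in S288C, W303, SK1 and diploid SK1, and NAM7, which encodes Upf1, by -6.41 in upf1Δ. DCP2 RNA rose by 0.68 in dcp2-7, in which the gene is present as an altered allele, and stood at -0.17 when libraries were scaled to the median mRNA. Changes are log2 differences of density plus a pseudocount of 0.00577 reads per nucleotide, tested with limma over 9712 features of the 24 rRNA-depleted libraries, called at a Benjamini-Hochberg adjusted p under 0.05. The comparisons were also computed after scaling each library to its median mRNA (the mRNA scale), which moved the median change of all features from 0.46 to -0.04 in upf1Δ, from 0.73 to -0.05 in dcp2-7, and from 1.68, 1.94, 1.43 and 2.68 to 0.05, -0.03, -0.10 and -0.34 in xrn1Δ S288C, W303, SK1 and diploid SK1. Backgrounds given below are shares of all features tested that were called on the snoRNA scale. None is given for counts on the mRNA scale or for rises of at least 2-fold, so those counts are not set against all features. They do not show whether a split is particular to the members.

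Loss of Upf1 raised most of these XUTs and lowered none. Of 674 members, 543 rose in upf1Δ against a background of 54.3% of all features, and 363 rose at least 2-fold. None fell (background 1.26%): 27 members had a negative change, 0 of them lower at an unadjusted p under 0.05, and voom on recovered reads also called 0 lower. The median change was 1.11 over the members, 0.46 over all features and 0.33 over mRNAs. Among the 576 members off Ty, 472 rose with a median of 1.22. On the mRNA scale 388 members rose and 25 fell.

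Median density off Ty was 0.0147 and 0.0163 reads per nucleotide in the WT_UPF1 libraries and 0.0510 and 0.0442 in the upf1Δ libraries. The members off Ty took 0.107% and 0.108% of all reads in wild type and 0.350% and 0.327% in upf1Δ. Both mutant libraries lay above both wild-type libraries on each measure.

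The XUTs opposite a gene gave 935 rises of 1124, 2 falls and a median change of 1.38, and stable unannotated transcripts (SUTs) with no gene opposite gave 307 rises of 380 tested, 1 fall and a median of 1.19. CUTs with no gene opposite, which are mainly nuclear exosome substrates, gave 161 rises of 358 with a median of 0.44. These are descriptions side by side, since the classes overlap in coordinates and were chosen with results known. Within the members off Ty, the 384 with no row of any type on the other strand had 309 rises and a median of 1.14, and the 192 with another row there had 163 rises and a median of 1.40. The 40 members opposite an R64 gene without a gene row had 35 rises and a median of 1.59. The 502 members with no gene within 200 nt on the other strand had 406 rises and a median of 1.07. Divergent, tandem and other members off Ty had medians of 1.13, 1.44 and 1.38.

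**Figure D1:**
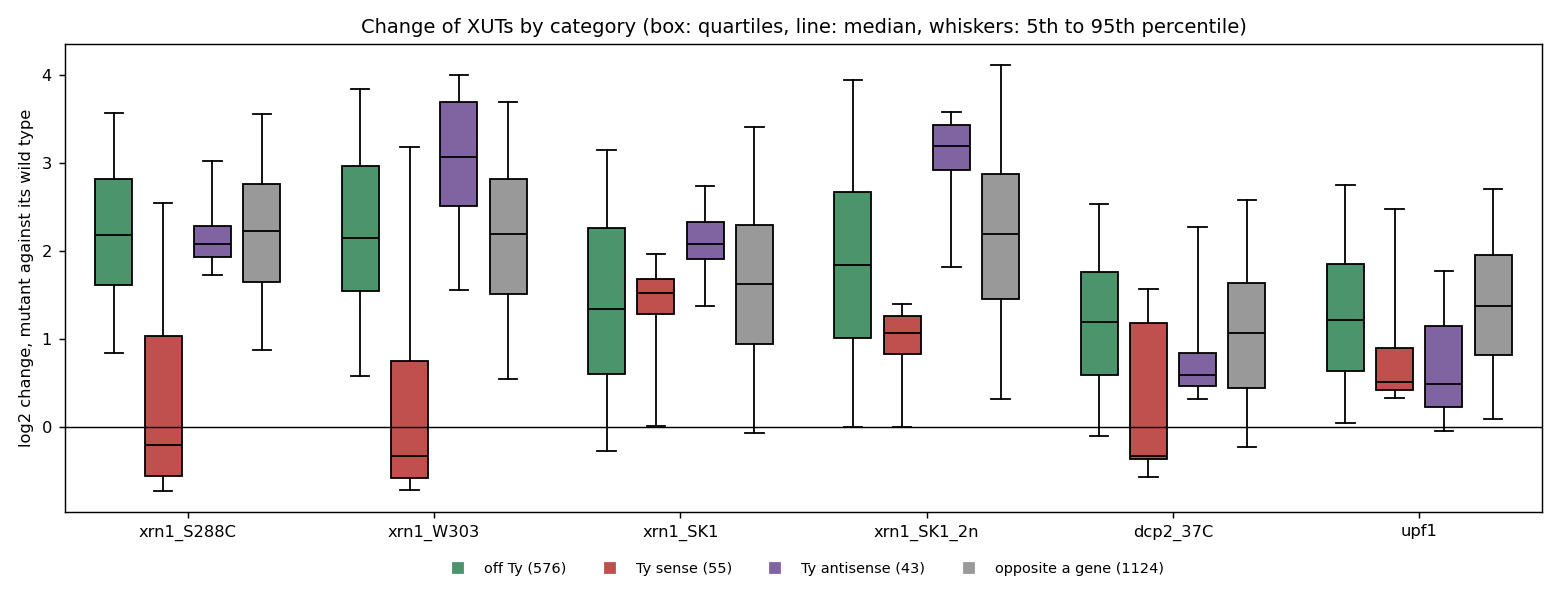
Log2 change (vertical axis) of XUTs in each of 6 mutants against its own wild type (horizontal axis), for members off Ty, Ty sense members, Ty antisense members and XUTs opposite a gene. Boxes are quartiles, lines medians and whiskers the 5th to 95th percentiles; in upf1 the median is 1.22 off Ty and 1.38 opposite a gene, and Ty sense members lie below 0 at the median in xrn1_S288C, xrn1_W303 and dcp2_37C.

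The largest rise in upf1Δ was that of XUT0788, near the left end of chromosome 15, upstream of YOL164W-A. Its density was 0.00676 and 0.00139 reads per nucleotide in wild type, from 17 and 5 reads, and 0.119 and 0.0893 in upf1Δ, from 171 and 185 reads. Both mutant libraries were far above both wild-type libraries (log2 change 3.52, SE 0.223, limma adjusted p = 4.33e-12). XUT0788 also rose in xrn1Δ S288C, in xrn1Δ W303 and in dcp2-7 (3.58, 3.59 and 2.02), and had 0 reads in all haploid and diploid SK1 libraries.

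XUT0988 ends 1353 nt before DUR12, which encodes the urea amidolyase Dur1,2. It stood at 0.0108 and 0.0146 reads per nucleotide in wild type and at 0.146 and 0.145 in upf1Δ, a change of 3.04 (SE 0.157, limma adjusted p = 1.86e-13). In dcp2-7 it went from 0.0281 and 0.0296 to 0.312 and 0.254, a change of 3.05. In xrn1Δ S288C it went from 0.0174 and 0.0172 to 0.424 and 0.403, a change of 4.18. It was the only member named for all 3 of the S288C mutants, with no overlap between mutant and wild-type libraries in any of them.

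XUT0390 starts 212 nt from BUB1, a spindle checkpoint kinase gene that is transcribed away from it. Its density was 0.0196 and 0.0196 in wild type and 0.218 and 0.181 in upf1Δ (3.01, SE 0.141). It rose in all 4 xrn1Δ backgrounds, by 2.46 to 4.28, and in dcp2-7 by 2.15. XUT0468 lies 7028 nt upstream of SUC2, the invertase gene, and went from 0.0161 and 0.0231 to 0.186 and 0.181 in upf1Δ (2.91, SE 0.153). The other members named by the rule were XUT0930 (3.13) and XUT0929 (2.96), which follow each other on the minus strand near the left end of chromosome 1.

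The 3 members with the highest wild-type density did not pass the test in upf1Δ. XUT0074 lies opposite LSR1, the U2 spliceosomal RNA, and stood at 1.00 and 0.993 in wild type and 0.983 and 1.27 in upf1Δ (0.16, limma adjusted p = 0.353). XUT1151 lies opposite SCR1, the RNA of the signal recognition particle, and stood at 0.489 and 0.376 against 0.270 and 0.395 (-0.39, adjusted p = 0.164 by limma). Their density was 0.626% to 1.81% of that of LSR1 and 0.0345% to 0.108% of that of SCR1 in the rRNA-depleted S288C libraries, and whether reads of the opposite strand contribute was not tested. XUT0028, a Ty1 sense RNA on YBLWTy1-1, stood at 0.438 and 0.456 against 0.534 and 0.546 (0.27, limma adjusted p = 0.0675).

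**Figure D2:**
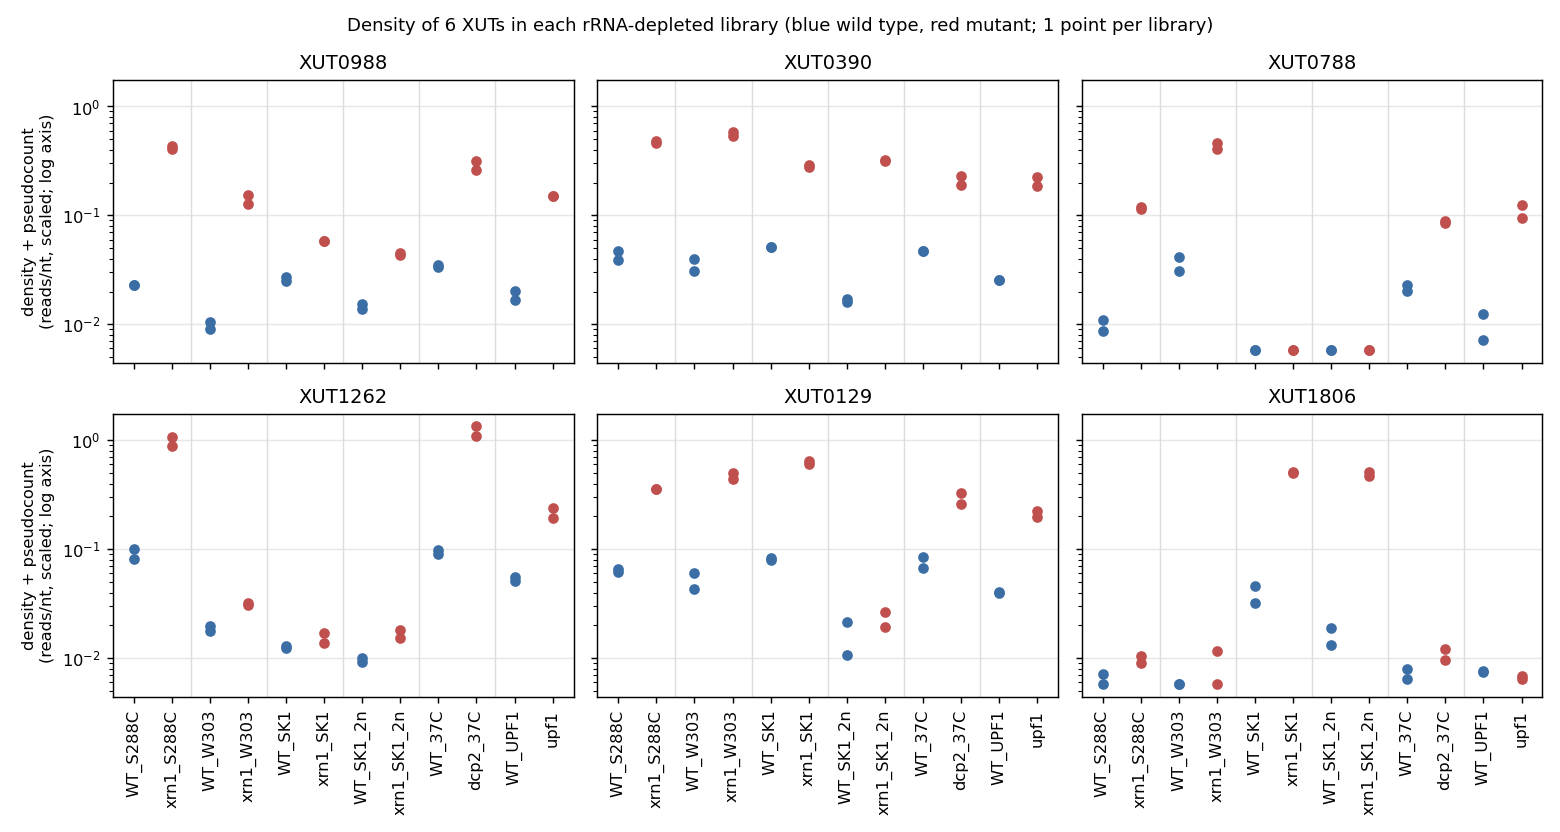
Density plus pseudocount (reads per nucleotide, log axis) of 6 members in each of the 24 rRNA-depleted libraries, 1 point per library, wild type in blue and mutant in red. XUT0988 and XUT0390 are higher in all mutants than in their wild types, XUT0788 has 0 reads in SK1, XUT0129 stays low in diploid SK1, and XUT1806 is high only in the 2 SK1 mutants among these groups.

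Impaired decapping raised a majority of the members too. In dcp2-7, 502 members rose (background 72.4%) and 43 fell (background 4.12%), with 375 rising at least 2-fold, a median change of 1.09 and a median over all features of 0.73. The share of members that rose was close to the background. Off Ty, 450 rose and 13 fell, with a median of 1.19. The mRNA scale gave 45.0% of the 674 members higher and 105 members lower, and 274 higher and 69 lower among the 576 off Ty. Median density off Ty went from 0.0316 and 0.0371 reads per nucleotide in WT_37C to 0.0927 and 0.0799 in dcp2-7. XUTs opposite a gene gave 824 rises and 29 falls of 1124 and a median of 1.07.

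XUT1262 on chromosome 7, ending 1165 nt from RTS3, had the largest rise in dcp2-7. Its density was 0.0853 and 0.0930 in wild type and 1.33 and 1.10 in the mutant (3.68, SE 0.168, limma adjusted p = 1.04e-13). It also rose by 1.99 in upf1Δ and by 3.42 in xrn1Δ S288C, but by 0.75 in W303 and 0.78 in diploid SK1, where the mRNA scale turned the values to -0.79 and -1.18, and it did not pass in haploid SK1 (0.29, limma adjusted p = 0.111). XUT0952 went from 0.0161 and 0.0209 to 0.273 and 0.255 in dcp2-7 (3.48), and XUT0790, divergent from CSS3, from 0.0270 and 0.0304 to 0.345 and 0.279 (3.20).

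Some members changed in dcp2-7 and less or not detectably in upf1Δ. XUT0589, divergent from YKL091C, went from 0.00551 and 0.00394 to 0.0660 and 0.0883 in dcp2-7 (2.97) and stood at -0.03 in upf1Δ (SE 0.267, limma adjusted p = 0.927). XUT0831, divergent from GSP2, a Ran GTPase gene, rose by 2.97 in dcp2-7 and by 0.79 in upf1Δ. The difference between the mutants was not tested. Among the falls in dcp2-7, XUT0463, antisense to the Ty1 element YHRCTy1-1, went from 0.133 and 0.127 to 0.0256 and 0.0330 (-1.96), although it rose by 3.02 in xrn1Δ S288C. XUT1504 (-1.75) and XUT0029 (-1.57) fell from 55 and 60 reads to 7 and 13, and from 40 and 24 reads to 4 and 5.

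Off Ty, 404 members rose in both upf1Δ and dcp2-7. That is 85.6% of those that rose in upf1Δ, where the share over all features was 86.3%, and 89.8% of those that rose in dcp2-7, where it was 64.7%. Adding xrn1Δ S288C left 401 of 576 (69.6%), against 747 of 1124 XUTs opposite a gene (66.5%) and 46.4% of all features. Over the 576 members the changes in upf1Δ and dcp2-7 had a Pearson r of 0.466 and a Spearman rho of 0.484, a description across RNAs that share libraries within each comparison. Of the members off Ty, 46 rose in dcp2-7 without a rise in upf1Δ (7.99%, against 25.4% of all features). In upf1Δ, 68 rose without a rise in dcp2-7 (11.8%, against 7.41% of all features). A call in a single mutant is no tested difference between the mutants.

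**Figure D3:**
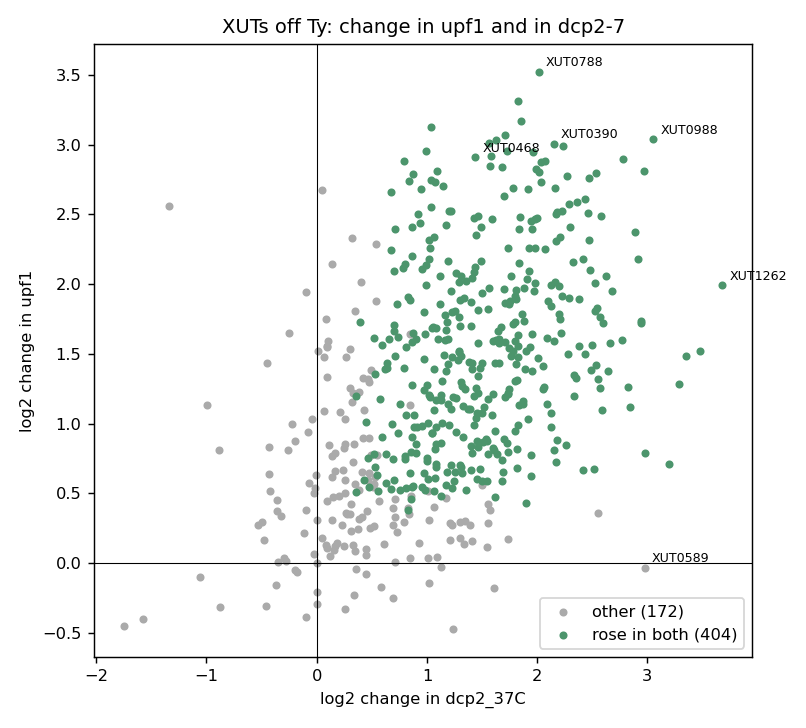
Log2 change in dcp2_37C (horizontal axis) and in upf1 (vertical axis) of the 576 members off Ty, 1 point per member; green points are the 404 that rose in both. XUT0788 and XUT0988 stand highest among the labelled members in upf1, XUT1262 farthest right, and XUT0589 at 2.97 in dcp2_37C and -0.03 in upf1.

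Loss of Xrn1 raised most members on the snoRNA scale, with 563 of 576 off Ty in S288C, 552 in W303, 448 in SK1 and 509 in diploid SK1. In xrn1Δ S288C 624 members rose (background 91.6%) and 23 fell (background 0.927%), and in W303 614 rose (background 91.3%) and 30 fell (background 1.1%). In haploid SK1 540 rose (background 82.5%) and 21 fell (background 3.32%), and in diploid SK1 601 rose (background 90.5%) and 11 fell (background 1.3%). These shares are near the background, since most features rise on the snoRNA scale. On the mRNA scale the splits were 359 higher and 88 lower in S288C, 300 and 139 in W303, 254 and 178 in SK1, and 138 and 355 in diploid SK1, and the median off Ty turned from 1.34 to -0.02 in SK1 and from 1.85 to -0.59 in diploid SK1. Median density off Ty went from 0.0242 and 0.0236 to 0.131 and 0.132 in S288C, from 0.0190 and 0.0202 to 0.106 and 0.107 in W303, from 0.0246 and 0.0228 to 0.0719 and 0.0730 in SK1, and from 0.00762 and 0.00902 to 0.0493 and 0.0463 in diploid SK1. Of the 576, 412 (71.5%) rose in all 4 backgrounds, against 922 of 1124 XUTs opposite a gene (82.0%) and 77.5% of all features.

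In xrn1Δ S288C the 36 members on chromosome 11 had a median change of 3.02 against 2.06 elsewhere. The mRNAs of chromosome 11 had a median of 2.46 against 1.54 elsewhere in that comparison, 1.96 against 1.97 in W303, 1.55 against 1.55 in SK1, 3.15 against 3.14 in diploid SK1, 0.70 against 0.71 in dcp2-7 and 0.30 against 0.33 in upf1Δ. Without chromosome 11, 588 members rose in this comparison. The chromosome 11 member XUT0596, opposite the snoRNA gene snR87, is among the largest rises in xrn1Δ S288C (4.11).

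The falls in xrn1Δ S288C and W303 came almost entirely from Ty sense RNAs, 22 of 23 and 29 of 30, and 29 of 43 in dcp2-7, where 20 members fell in all 3. The 32 Ty1 sense members gave 21 falls and no rise in S288C (median -0.47), 28 falls and no rise in W303 (-0.53) and 27 falls and no rise in dcp2-7 (-0.36). These copies may share reads, so the number that moved together is no measure of agreement between separate RNAs. Their median density was 0.404 and 0.400 in WT_S288C and 0.278 and 0.278 in xrn1Δ, 0.345 and 0.372 in WT_W303 and 0.242 and 0.264 in xrn1Δ, with no overlap. All 32 were lower on the mRNA scale in each of these 3 comparisons. In upf1Δ 29 of the 32 rose, with a median of 0.42, but none rose and 2 fell on the mRNA scale (median -0.14), so no direction is given for Ty1 in upf1Δ.

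In SK1 the same Ty1 annotations behaved otherwise. All 32 rose in haploid xrn1Δ (median 1.46) and 27 did so on the mRNA scale, from densities of 0.00334 and 0.00329 to 0.0185 and 0.0183, so the level in SK1 was far below that in S288C. In diploid SK1 all 32 rose (1.23) on the snoRNA scale and all 32 fell on the mRNA scale. SK1 has its own set of Ty insertions, and how many reads of these elements match the S288C annotation was not tested.

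Ty2 sense RNAs rose in 13 of 15 cases in S288C (median 1.10) and W303 (0.76), and in all 15 in dcp2-7 (1.21) and upf1Δ (0.90). On the mRNA scale the direction of Ty2 flipped in S288C (11 lower, median -0.59), W303 (15 lower, -1.28) and diploid SK1 (15 lower, -1.94) and held at the median in dcp2-7 (9 higher, 1 lower) and upf1Δ (11 higher). The 6 Ty3 and Ty4 sense members rose in 5 or 6 cases in S288C, W303, dcp2-7 and upf1Δ with medians of 2.58, 3.22, 1.65 and 2.48, and 5 of 6 also did on the mRNA scale in each of them. The 5 Ty4 members went from 0.0108 and 0.0106 to 0.0997 and 0.0880 in upf1Δ at the median and had a median of 0 in SK1.

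Antisense RNAs of Ty1, which overlap the sense RNA of an element and are known in S288C to repress Ty1 transposition, changed in the opposite direction to the sense RNAs in xrn1Δ S288C and W303. All 32 rose in xrn1Δ S288C (median 2.07) and in W303 (3.09), with 28 and 29 rising on the mRNA scale. Their median density went from 0.00345 and 0.00323 to 0.0319 and 0.0281 in S288C and from 0.00209 and 0.00210 to 0.0667 and 0.0701 in W303. In dcp2-7 23 rose and 1 fell, with a median of 0.59, and in upf1Δ 9 rose with a median of 0.35; with mRNA scaling 11 rose in dcp2-7 and 6 in upf1Δ, and 1 fell in each. The 8 Ty2 antisense members all rose in upf1Δ, with a median of 1.21.

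**Figure D4:**
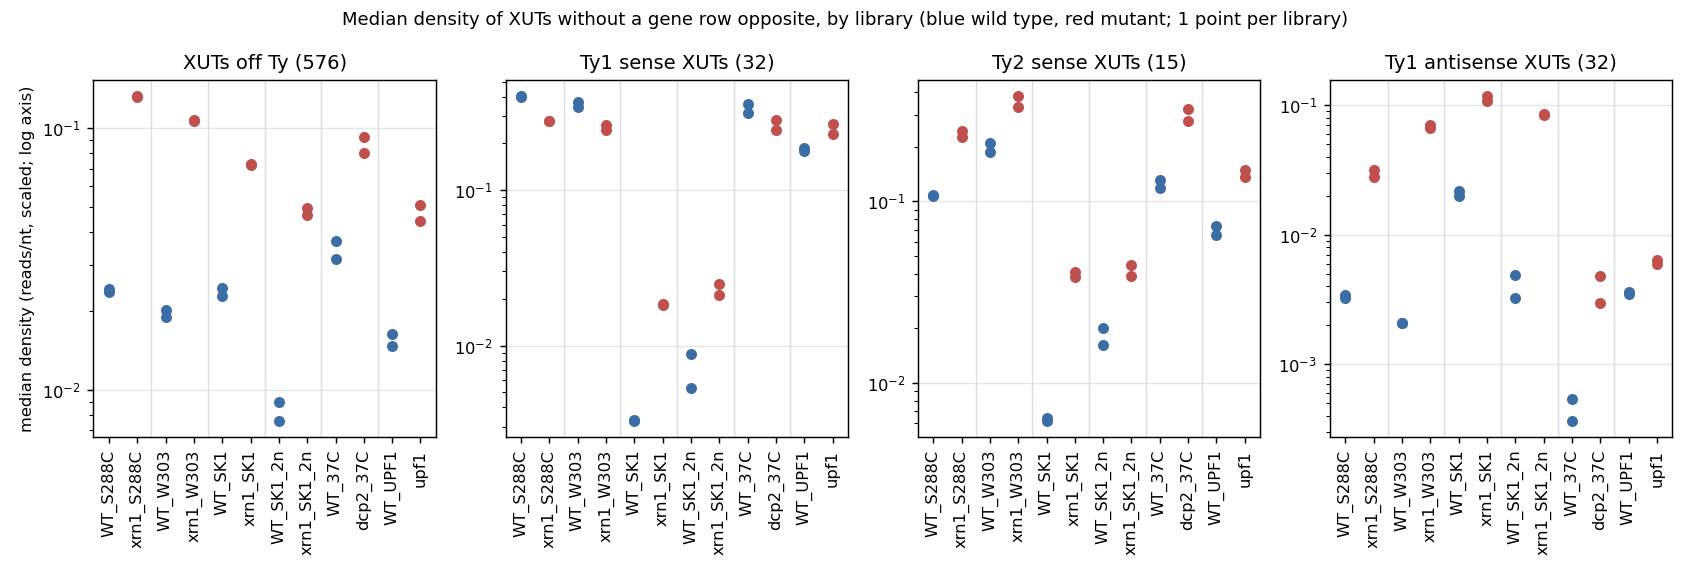
Median density (reads per nucleotide, log axis) of 4 sets of members in each of the 24 rRNA-depleted libraries, 1 point per library, wild type in blue and mutant in red. Members off Ty are higher in every mutant pair than in its wild type, a direction the mRNA scale turns at the median in xrn1_SK1 and xrn1_SK1_2n; Ty1 sense RNAs are lower in xrn1_S288C, xrn1_W303 and dcp2_37C and higher in the SK1 mutants and in upf1, where the mRNA scale turns the diploid SK1 and upf1 direction; Ty1 antisense RNAs are higher in all mutants.

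Terminator digestion asked which of these RNAs carry an exposed 5′ phosphate. Its contrasts were fitted on 16 libraries (9615 features, 670 of the members) and use the same untreated libraries as the mutant comparisons. In xrn1Δ S288C, 590 members were lower after digestion (background 83.2%) and 3 higher (background 2.14%), with a median of -1.12, and 516 were lower among those off Ty. With mRNA scaling that split was 134 higher and 148 lower. In WT_S288C 93 were higher (background 13.7%) and 68 lower (background 11.6%), and 53 of the 68 were Ty sense RNAs (median over the 55 of -1.0). The median density of these 55 went from 0.285 and 0.301 to 0.140 and 0.151 on digestion in WT_S288C. In WT_37C, the same strain, it showed no such drop, with 0.243 and 0.292 untreated and 0.271 and 0.284 digested. With mRNA scaling the split in WT_S288C was 190 higher and 86 lower. The response was lower in xrn1Δ than in wild type, by the interaction term, for 531 members (background 81.6%) and higher for 0 (background 0.187%). Off Ty it was lower for 495 with a median difference of -1.38, and for 939 of the XUTs opposite a gene with a median of -1.24. Scaled to mRNA it was lower for 145 members and higher for 65. XUT0988 went from 0.424 and 0.403 to 0.0813 and 0.0815 on digestion in xrn1Δ and from 0.0174 and 0.0172 to 0.0230 and 0.0270 in wild type, a difference in response of -2.61 (SE 0.234).

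Ty sense RNAs were the exception in that test. The 32 Ty1 sense members had a difference in response of 0.13 at the median, and 0 were called. All 32 had a higher response in xrn1Δ on the mRNA scale. Ty antisense RNAs gave 19 lower responses of 43 (median -0.56), a direction that turned with mRNA scaling (1 lower and 2 higher, median 0.20).

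In dcp2-7, more members were higher than lower after digestion. There 156 were higher (background 22.1%) and 22 lower (background 3.9%), and in WT_37C 101 were higher (background 17.5%) and 12 lower (background 2.69%). Scaled to the median mRNA, the splits were 120 and 57 in dcp2-7 and 69 and 38 in WT_37C. Leaving out the first dcp2_37C library gave 10 lower instead of 22, and leaving out the first digested dcp2_37C library gave 13. Of the 43 Ty antisense members, 34 were higher after digestion in dcp2-7, with a median of 0.93. The response did not differ detectably between dcp2-7 and its wild type, with 0 members higher (background 0.052%) and 0 lower (background 0.0312%) by limma, 41 at an unadjusted p under 0.05, and 1 lower and 0 higher by voom.

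CAGE placed capped 5′ ends at some annotated starts. Both lists come from YAM1 and YAM2283 grown in rich medium and shifted to 37 °C for 2 h, each pooled over its libraries, with 9340 positions in wild type and 10183 in dcp2-7. A position on the same strand within 50 nt of the annotated 5′ end was present for 149 of the 674 members in wild type (22.1%, 95% Wilson interval 19.1 to 25.4) and 228 in dcp2-7 (33.8%, 30.4 to 37.5). Off Ty it was 148 (25.7%, 22.3 to 29.4) and 226 (39.2%, 35.3 to 43.3), with 130 in both lists, 96 in dcp2-7 only and 18 in wild type only. XUTs opposite a gene had 28.6% and 38.3%. These intervals cover counting error only, and no test was made between lists. Within 10 nt the counts over all 674 members were 114 in wild type and 224 in dcp2-7. SUTs with no gene opposite had 71 of 381 within 10 nt and 127 within 50 nt in dcp2-7. Whether the annotated XUT starts were drawn from these CAGE positions was not tested. The shares, and their excess in dcp2-7, are therefore not independent evidence of capped starts.

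The share was also computed by position relative to genes, with no test between positions. Divergent members off Ty had a position in 29.4% in wild type and 44.1% in dcp2-7, tandem members in 6.98% (3 of 43) and 30.2%, and the others in 24.9% and 35.6%. The 3 printed RNAs XUT0988, XUT0468 and XUT1262 have one in both lists, at 0 to 39 nt from the annotated start. XUT0788 has one at 0 nt in the dcp2-7 list, and XUT0390 has none within 50 nt in either. Among Ty antisense members it was 0 of 43 in both lists, with an upper 95% Wilson limit of 8.20%, while 3 counts of 43 would be a share of 6.98%. Ty sense members had 1 of 55 in wild type and 2 in dcp2-7. Few 50-nt windows of Ty members are unique in R64, and whether CAGE reads from Ty copies could be placed was not tested. The 0 therefore does not show that capped ends are absent.

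**Figure D5:**
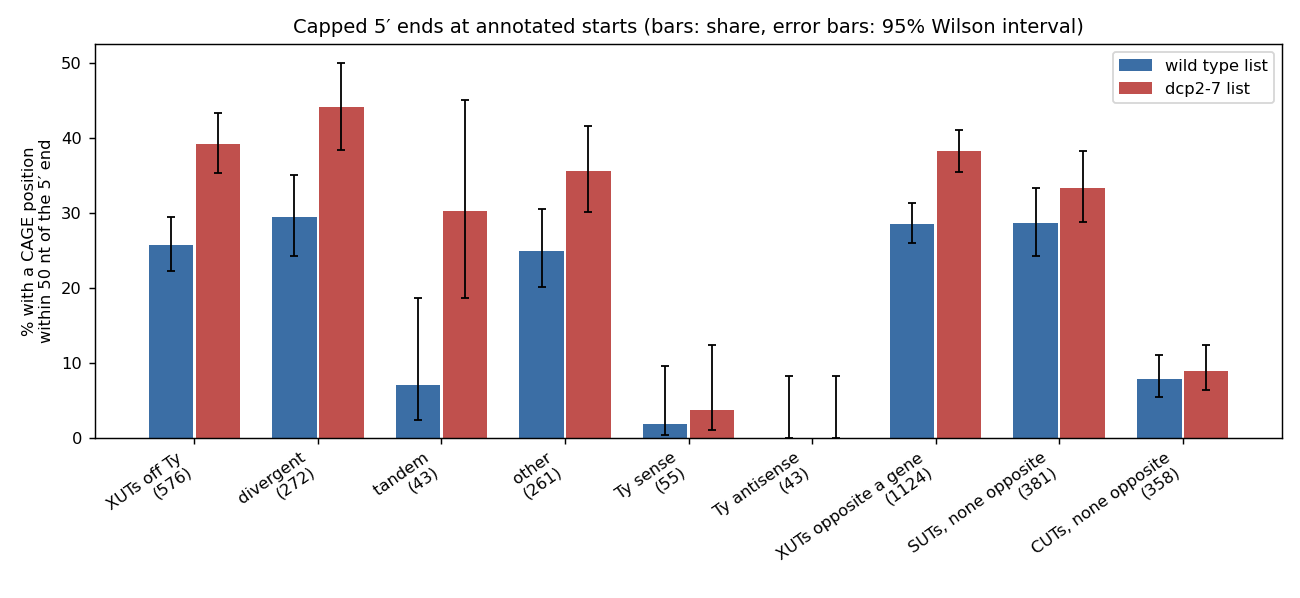
Share of RNAs with a CAGE position within 50 nt of the annotated 5′ end on the same strand (bars, %) in the wild-type (blue) and dcp2-7 (red) lists, with 95% Wilson intervals; the number of RNAs is in parentheses. Members off Ty stand at 25.7% and 39.2%. Ty antisense members stand at 0 in both lists, and whether reads from repeated Ty copies could be placed was not tested.

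Members off Ty with 0 reads were few in the xrn1Δ libraries, at most 12 of 576 in haploid SK1 and 15 in diploid SK1. Wild-type libraries had up to 18 in haploid SK1, 33 in diploid SK1 and 29 in W303. The difference in the xrn1Δ effect between backgrounds, an interaction term, was called for W303 against S288C in 117 members higher (background 22.1%) and 93 lower (background 7.92%), and for haploid SK1 against S288C in 103 higher (background 11.5%) and 320 lower (background 30.0%). For diploid SK1 it was 189 higher (background 62.9%) and 244 lower (background 13.6%) against S288C, and 272 higher (background 72.0%) and 52 lower (background 2.87%) against haploid SK1. These counts depend on the scale. With mRNA scaling, 48 were higher and 126 lower for W303, 100 and 289 for haploid SK1, and 59 and 412 for diploid SK1, each against S288C. Diploid against haploid SK1 gave 17 higher and 295 lower, and the median difference over the members turned from 0.49 to -0.61. Some members had no reads in a strain, such as XUT0788 in SK1 and XUT1602 in W303, and their part in the counts was not tested. XUT0083, upstream of SPB1, reached 4.14 and 4.50 reads per nucleotide in xrn1Δ W303 from 0.170 and 0.166 in its wild type (4.63, SE 0.129).

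XUT1806, divergent from the glycogen phosphorylase gene GPH1, is an SK1 case. It went from 0.0405 and 0.0261 to 0.499 and 0.503 in haploid SK1 (3.72) and from 0.00736 and 0.0132 to 0.508 and 0.461 in the diploid (4.96). In S288C it stood at 5 and 3 reads in xrn1Δ. XUT0380, divergent from CCM1, rose by 4.99 in diploid SK1, from 0.0132 and 0.0108 to 0.576 and 0.545. XUT0306 was the largest fall in haploid SK1, from 0.207 and 0.214 to 0.0469 and 0.0488 (-2.01).

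XUTs upstream of HO differed between haploid and diploid SK1. HO encodes the endonuclease of mating-type switching, and its transcription is repressed in a/α diploids. XUT0129 (chromosome 4, 49882 to 50970, plus strand) and XUT1030 (48247 to 48984, minus strand, ending 216 nt upstream of HO) both lie in its long upstream region. XUT0129 stood at 0.0731 and 0.0776 in haploid wild type and 0.602 and 0.635 in haploid xrn1Δ, and at 0.00484 and 0.0157 and then 0.0209 and 0.0136 in the diploids. XUT1030 stood at 0.0162 and 0.0127 and then 0.0951 and 0.0937 in the haploids, and at 11 reads or fewer in each diploid library. The difference of the xrn1Δ effect, diploid minus haploid, was -2.36 for XUT0129 (SE 0.339, limma adjusted p = 3.28e-06) and -2.27 for XUT1030 (SE 0.283, limma adjusted p = 1.93e-07). Of the mating-type markers, 7 haploid-specific genes summed to 3.14 and 2.82 reads per nucleotide in haploid SK1 wild type and 0.184 and 0.604 in the diploid. The 4 α-cell genes summed to 21.4 and 20.1 in haploid SK1 and 3.05 and 7.39 in the diploid, and WT_S288C and WT_W303 had 0.0758 to 0.122 of these and 11.5 to 24.3 of the 5 a-cell genes. The median density of all mRNAs was also lower in the diploid wild type, at 0.0725 and 0.0876 against 0.258 and 0.219 in the haploid, and its part in these sums was not tested. In the xrn1Δ libraries the α-cell genes summed to 35.1 and 34.6 in haploid SK1 and 2.41 and 1.17 in the diploid. The mRNA medians there were 0.785 and 0.784 in the haploid and 0.962 and 0.894 in the diploid.

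HO itself fell in 2 of the 3 S288C mutants in which XUT0129 rose. Its density went from 0.374 and 0.346 to 0.0829 and 0.0835 in xrn1Δ (-2.04, limma adjusted p = 1.50e-12) and from 0.256 and 0.276 to 0.0598 and 0.0576 in dcp2-7 (-2.07), while XUT0129 rose by 2.49 and 1.95. XUT0129 and HO both rose in xrn1Δ W303 (3.20 and 1.10), in haploid SK1 (2.94 and 1.79) and in upf1Δ (2.39 and 0.36), but on the mRNA scale HO stood at -0.99 in W303 and -0.20 in upf1Δ and kept its direction in the other 3, at -3.66 in xrn1Δ S288C, -2.89 in dcp2-7 and 0.34 in SK1. In diploid SK1, HO went from 0.0047 and 0.00606 to 0.0556 and 0.0490 in xrn1Δ (2.38, and -0.16 on the mRNA scale). In haploid SK1 it went from 0.0184 and 0.0158 to 0.0715 and 0.0751. The diploid minus haploid difference of the xrn1Δ effect was 0.59 for HO (limma adjusted p = 0.0072). That is opposite in sign to XUT0129 and XUT1030 on the snoRNA scale, but HO stood at -0.51 on the mRNA scale. HO was singled out after its values were seen.

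The decay factors themselves were measured in the same fits, in which 54.3% of all features rose in upf1Δ, 72.4% in dcp2-7 and 91.6% in xrn1Δ S288C. Of 5 NMD factor genes, 4 rose and 1, the deleted NAM7, fell in upf1Δ, and all 5 rose in dcp2-7. Of 17 decapping and 5′ to 3′ decay genes, 6 rose in upf1Δ, 13 in dcp2-7 and 16 in xrn1Δ S288C, where XRN1 fell. Of 9 nuclear exosome and Nrd1-Nab3-Sen1 termination genes, 4 rose in upf1Δ, 7 in dcp2-7 and 9 in xrn1Δ S288C. On the mRNA scale, 0 of the 17 decay genes were higher and 12 lower in upf1Δ, with 5 and 9 in dcp2-7 and 5 and 12 in xrn1Δ S288C. The exosome and termination genes gave 1 higher and 4 lower in upf1Δ, 1 and 2 in dcp2-7 and 3 and 6 in xrn1Δ S288C. The 5 NMD factor genes gave 2 and 1, 3 and 0, and 3 and 0 in the same order, with medians of 0.14, 0.38 and 0.23. The median thus turned for the decay and the exosome lists and kept its sign for the NMD factors. Among single factors, NMD4 rose by 2.63 and EBS1 by 1.71 in upf1Δ on the snoRNA scale.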

How the data were processed

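Strand-specific RNA-seq was deposited as 1 table of densities for 32 libraries (24 rRNA-depleted, 8 Terminator-digested) over 9765 annotated features, and CAGE as 1 list of positions per strain, each pooled over 2 of the 4 CAGE samples. The density is a signal that the authors deposited as reads per nucleotide times a factor per library: density times length is a whole multiple of 1 value per library in 100% of non-zero values (tolerance 0.01 reads), and the summed snoRNA signal is equal in all libraries, from the deposited values. Hot-phenol RNA was freed of rRNA or digested, made into stranded libraries and read as paired 50-nt ends, per the labels' protocols. TopHat, Bowtie and cutadapt are named without versions in the submitters' processing notes. The sources used here name neither the genome build nor the treatment of reads with several matches. Of 5775 nuclear gene rows, 99.5% begin with ATG and end with a stop codon in R64, so R64 sequence was read at the deposited coordinates.

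Because the values are densities and not counts, log2(density + pseudocount) was tested with limma 3.58.1 (trend and robust options, two-sided, R 4.3.3), 1 fit over 12 groups of 2 libraries (12 residual degrees of freedom) and 1 over the 8 groups of the Terminator contrasts (8 degrees). The pseudocount is the 5th percentile of non-zero densities (0.00577 and 0.00841), and features at or above it in 2 libraries were tested. Adjusted p-values are Benjamini-Hochberg values over all features tested. limma-voom on recovered reads, other pseudocounts, no filter, the mRNA scale, fits of the compared groups alone, left-out libraries and a replicate block were the alternatives. The script was tested on simulated data. Depth limits are counting error only. The p-values rest on the spread between libraries within groups, pooled over all groups of a fit and shared in part across features.

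Members named for a mutant against its wild type passed at an adjusted p under 0.05 and 2-fold, with no overlap between mutant and wild-type libraries. They had at least 20 reads in each library of the higher group and no nucleotide shared on the same strand. The 6 largest rises and 3 largest falls were taken for upf1 and dcp2_37C, and 4 and 2 for each xrn1 comparison. For the differences, the 3 largest in each direction were taken under the same conditions on p, size and shared nucleotides. These needed 20 reads in any 2 libraries and had no condition on overlap. The 3 members of highest wild-type density met only the condition on shared nucleotides. HO and the members at the edge of the rule were chosen after values were seen. Matching sequence came for 673 members on nuclear chromosomes. The members and lists were chosen with earlier results of these data known. Same-numbered libraries of compared groups deviated with correlations of -0.140 to 0.247, and no label says that a number marks a shared culture.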

Additional observations from a re-analysis of the deposited data

Results flagged for a closer look

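The difference between 2 contrasts, tested as an interaction term in limma, was called for the following members and counts. The response to Terminator was lower in xrn1_S288C than in WT_S288C for 531 members, and most so for XUT0427 (-2.66), XUT0182 (-2.61) and XUT0988 (-2.61). XUT0427 rests on 1 and 6 reads in the digested wild type and 1 and 5 in the untreated one.

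The effect of xrn1Δ differed between W303 and S288C for 117 members with a higher and 93 with a lower value in W303 (48 and 126 on the mRNA scale). Named among the higher are XUT0121 (2.91), XUT0262 (2.20) and XUT0303 (2.14, antisense to YERCTy1-2, with 0% of its 50-nt windows unique in R64). XUT0121 had 0 and 4 reads in WT_S288C, so its fold depends on the pseudocount. Named among the lower are XUT1602 (-3.99), which had 0 reads in all 4 W303 libraries, XUT0605 (-3.45) and XUT0649 (-3.01), which lies opposite the ribosomal RNA gene RDN37-2. XUT0605 lies on chromosome 11, whose mRNAs had a median change of 2.46 against 1.54 elsewhere in xrn1Δ S288C. The part of that shift in its difference was not tested.

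Between haploid SK1 and S288C the difference was called for 103 members higher in SK1 and 320 lower (100 and 289 on the mRNA scale). The named higher ones are XUT1806 (3.12), XUT1197 (2.46) and XUT0483 (2.38, Ty3 sense, with unequal wild-type values of 0.0453 and 0.0300 in S288C). The named lower ones are XUT0790 (-4.44), which stood at 3 and 3 reads in WT_S288C, XUT0788 (-3.58), which had 0 reads in SK1, and XUT1466 (-3.42). XUT1466 also lies on chromosome 11, and the part of the higher values of that chromosome in xrn1Δ S288C was not tested.

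Between diploid SK1 and S288C it was called for 189 higher and 244 lower (59 and 412 on the mRNA scale). XUT1806 (4.36), XUT1518 (3.63) and XUT1504 (3.40) were higher, and XUT0790 (-4.28), XUT0788 (-3.58) and XUT0884 (-3.38) lower. XUT1518 is antisense to YLRWTy2-1, and 2.44% of its 50-nt windows are unique in R64. XUT0884 had 3 and 0 reads in diploid xrn1Δ and 3 and 9 in its wild type.

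Between diploid and haploid SK1, 272 members were higher in the diploid and 52 lower, a split that turned to 17 higher and 295 lower on the mRNA scale. XUT0306 (3.00), XUT0563 (2.62) and XUT0470 (2.43) were higher, and XUT0589 (-3.10), XUT0129 (-2.36) and XUT1030 (-2.27) lower. XUT0589 stood at 0.155 and 0.141 in haploid xrn1Δ and 0.00446 and 0.00994 in the diploid. XUT0129 and XUT1030 lie beside HO.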

How the results depend on the processing

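Counts of called members are given here as shares of the members counted, which are all 674 unless another number stands beside them, and a setting is named where the count moved by over 1.5 times. The mRNA scale moved them most: 53.3%, 44.5%, 37.7% and 20.5% rose in xrn1Δ S288C, W303, SK1 and diploid SK1 (92.6%, 91.1%, 80.1% and 89.2% on the snoRNA scale) and 45.0% in dcp2-7 (74.5%), 22.0% and 8.46% were lower after Terminator in xrn1Δ and dcp2-7 (87.5% and 3.26%), and 21.5% had a lower response in xrn1Δ (78.8%). The 426 members with no shared nucleotide gave smaller counts from fewer members, with shares of 88.7%, 88.0% and 90.8% in xrn1Δ S288C, W303 and diploid SK1, 72.1% in dcp2-7, 79.6% in upf1Δ, 85.0% for Terminator in xrn1Δ and 70.4% for the difference of responses. For Terminator in dcp2-7, a pseudocount at the 25th percentile gave 5.19% lower, and the 576 members off Ty, a setting chosen after seeing the data, gave 1.39%. The difference of responses in dcp2-7 was 0.148% (1 member) instead of 0 with the 25th-percentile pseudocount, with voom and with the compared groups alone. CAGE shares were 16.9% in wild type within 10 nt, 13.1% and 25.4% in wild type and dcp2-7 for members with no shared nucleotide, and 25.7% and 39.2% off Ty, the last chosen after seeing the data. DCP2 in dcp2-7 turned to -0.17, XUT0074 in upf1Δ to -0.42 and XUT0028 in upf1Δ to -0.31 on the mRNA scale, and XUT0074 ranged from -0.021 to 0.35 when 1 library was left out. The cause of these shifts was not tested.

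Leaving out 1 library at a time gave rises in 91.1% to 91.8%, 89.5% to 90.4%, 77.2% to 78.8% and 84.7% to 87.5% of the members for xrn1Δ in S288C, W303, SK1 and diploid SK1, 66.3% to 73.4% for dcp2-7 and 65.6% to 78.8% for upf1Δ. The 4 Terminator shares ranged from 80.1% to 83.2%, 1.48% to 2.37%, 73.9% to 77.6% and 0 to 0.148%. A replicate block gave rises in 92.1%, 90.9%, 80.6%, 89.0%, 74.6% and 78.2% (upf1Δ last), and the replicate numbers do not pair the libraries. Of 664 values for 68 pairs of a named member and a comparison, 649 kept direction and call, 7 lost the call, 4 gained one and 4 turned. Among those that lost it, XUT0121 in W303 against S288C was 0.78 with the smaller pseudocount and 0.16 with voom. Low read numbers limit members in strains where they are near 0, and 2 libraries a group limit all tests.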
